A study of Mus musculus with 4 samples.

Results

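CM1 is the most numerous cardiomyocyte population of these neonatal mouse hearts, and its nuclei were compared between an infarcted and a sham-operated pool of control hearts. The members are the nuclei that carry the label CM1 in the deposited table of nuclei and come from the WT-MI or the WT-Sham library. There were 1415 such nuclei in WT-MI, 70.6% of that library's nuclei, and 1098 in WT-Sham, 78.1% of its nuclei, which makes 2513 of the 8585 nuclei in the 4 libraries. For each gene, the UMIs (unique molecular identifiers, each counting 1 captured RNA molecule) were summed over the CM1 nuclei of a library and divided by that sum's total, to give CPM, counts per 1000000 counts. Every comparison below is the log2 ratio of these CPM, MI over Sham, with an exact 95% interval.

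Single-nucleus RNA sequencing on a droplet platform was done on 4 libraries, WT-MI, WT-Sham, KO-MI and KO-Sham. The WT hearts were Nrf1fl/fl mice without Cre, labelled wildtype although they carry the loxP-flanked allele, and the KO hearts were Nrf1fl/fl mice in which αMHC-Cre, active in cardiomyocytes, deletes Nrf1 (the gene listed as Nfe2l1, not the nuclear respiratory factor listed as Nrf1). MI (myocardial infarction) was made by tying off the left anterior descending artery of the heart on postnatal day 3, Sham was the same chest surgery without the ligation, and the tissue below the ligation plane was taken 1 day after surgery. Each library is a pool of 4 to 6 hearts of a single genotype, on a C57BL/6 background by the study's methods, so there was 1 pool a side. No test between MI and Sham was therefore possible, and every interval covers the counting error of that pool only and not the spread between hearts.

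Infarction deprives the ventricular wall of oxygen and substrate and stretches the surviving muscle around it. Cardiomyocytes under stretch or lasting overload are known to reactivate a set of fetal and stress genes, led by the natriuretic peptides Nppa and Nppb, the ankyrin repeat protein Ankrd1 and skeletal α-actin Acta1. In the first days after birth mouse cardiomyocytes also move from glycolysis to the oxidation of fatty acids, and for that short window the ventricle can still regenerate.

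The CM1 sums held 5799715 UMIs in WT-MI and 4151418 in WT-Sham. A nucleus held a median of 4042 UMIs (1154 to 7241) in WT-MI and 3749 (999 to 7128) in WT-Sham, with medians of 1867 and 1810 genes, and a median of 5.15% and 6.13% of UMIs from the mitochondrial genome. A second label in the table, transferred from an earlier dataset, was also CM1 in 1161 of the WT-MI and 934 of the WT-Sham nuclei, and was CM3 in most of the rest (192 and 142). Cardiomyocyte markers held in both pools, with Ttn at 12775 and 10977 CPM, Ryr2 at 7636 and 9691, Myh6 at 5809 and 5093 and Tnnt2 at 2890 and 4284. Any pair of libraries shared at most 2 barcodes. The sexes of the pooled hearts were not balanced. An Xist UMI (Xist RNA coats the inactive X of female cells) was found in 57.9% of WT-MI and 9.93% of WT-Sham CM1 nuclei, and a UMI of the Y chromosome list in 35.7% and 63.8%. RNA of blood and immune cells was also unequal: the neutrophil list summed to 413 CPM in WT-MI and 53.2 in WT-Sham, the myeloid list to 235 and 106, and the red blood cell list to 3831 and 2546. Sex and infarction cannot be told apart in the summed values, so the main results were also computed within nuclei of like sex markers and within nuclei without immune UMIs.

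Of 22574 genes, 8682 had 100 or more UMIs over both CM1 sums. Among them 593, 6.83%, were 1.5-fold or more higher in MI and 863, 9.94%, were 1.5-fold or more lower, and the median log2 ratio was -0.06. The split depended on scaling: with TMM factors, which set the bulk of genes to no difference, 770 were higher and 609 lower. The interval excluded no change for 3871 genes, including 590 of the 593 and all 863. At 2-fold 200 genes were higher and 212 lower, and at 4-fold 53 were higher and 14 lower. The 593 higher genes took 8.86% of all CM1 UMIs in MI against 4.61% in Sham, and the 863 lower genes took 4.41% against 7.92%. The classes differed little in gene length, with a median span of 31.1 kb for the higher, 28.7 kb for the lower and 31.9 kb for all these genes in the annotation, and 91.9%, 88.2% and 95.3% of them were protein-coding.

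**Figure D1:**
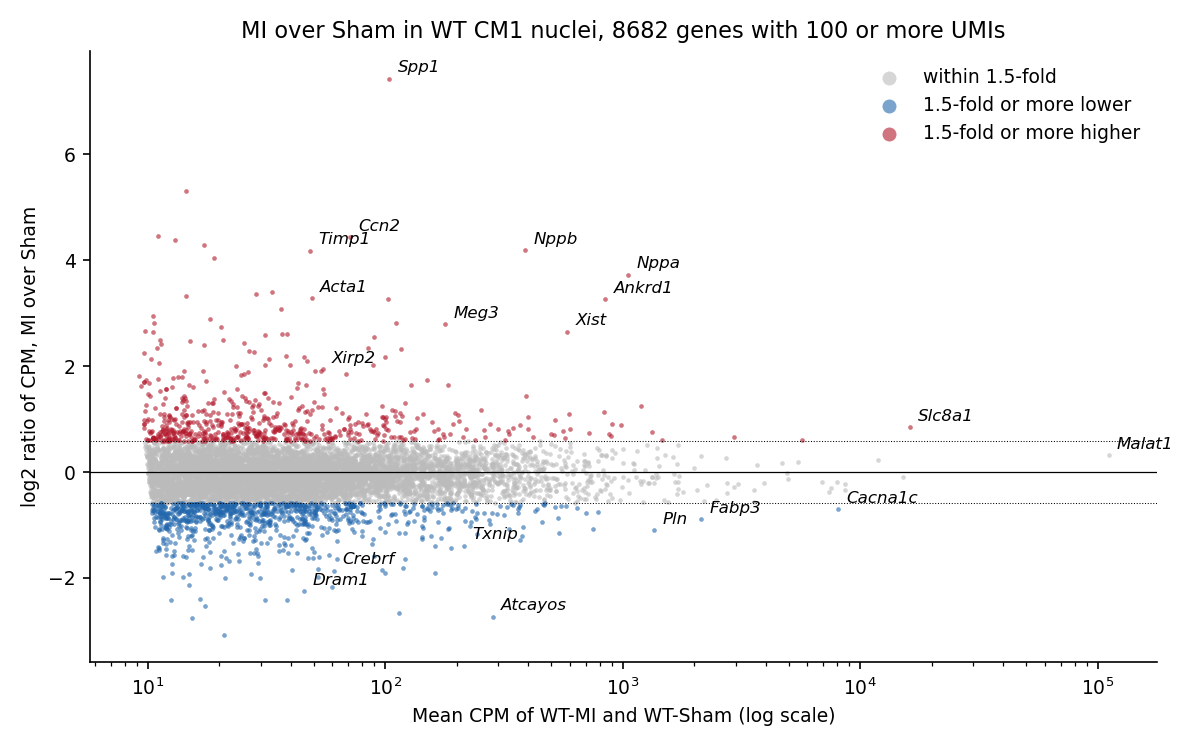
Each point is 1 of the 8682 genes with 100 or more UMIs, by its mean CPM in the WT-MI and WT-Sham CM1 sums (log axis) and its log2 ratio of CPM, MI over Sham; the dotted lines mark 1.5-fold either way. The natriuretic peptides and Ankrd1 combine a high level with a large ratio, Spp1 stands highest at 7.43, and the abundant Slc8a1 (0.85) and Cacna1c (-0.70) lie on opposite sides.

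The stress genes of the ventricle had some of the largest ratios in CM1 after infarction. Nppa, which encodes atrial natriuretic peptide, had 11373 UMIs in MI and 614 in Sham, 1961 against 148 CPM, 13.3-fold higher with a log2 ratio of 3.73 (95% interval 3.61 to 3.85). Nppb, which encodes B-type natriuretic peptide and neighbours Nppa on chromosome 4, had 4271 UMIs in MI and 167 in Sham, 736 against 40.2 CPM, 18.3-fold higher with a log2 ratio of 4.19 (3.97 to 4.43). Ankrd1, a stretch-responsive protein of the titin complex and the nucleus, had 8864 and 658 UMIs, 1528 against 159 CPM, a log2 ratio of 3.27 (3.15 to 3.39). Acta1, the skeletal actin of fetal and overloaded heart muscle, was much scarcer, at 89.1 and 9.15 CPM, yet its log2 ratio was close to that of Ankrd1 at 3.28 (2.81 to 3.80). The 3 abundant genes kept ratios of at least 2.49 under all settings tried. Nppa shares its locus with the annotated antisense gene Gm13054, and Acta1 with Gm20388, and whether the counting used strand is not given in the sources used here.

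The 250 bases before the RefSeq start of these 4 genes (GRCm38.p6) are shown because they are the proximal promoters of the leading cardiomyocyte genes. Capitals mark letters of the TEAD motif CATTCC or its reverse complement GGAATG, and in Acta1 also a CArG box, the site of serum response factor. Nppa lies on the plus strand at chr4:148000472-148000721, Nppb on the plus strand at chr4:147985650-147985899, Ankrd1 on the minus strand at chr19:36119845-36120094 and Acta1 on the minus strand at chr8:123894776-123895025.
Nppa: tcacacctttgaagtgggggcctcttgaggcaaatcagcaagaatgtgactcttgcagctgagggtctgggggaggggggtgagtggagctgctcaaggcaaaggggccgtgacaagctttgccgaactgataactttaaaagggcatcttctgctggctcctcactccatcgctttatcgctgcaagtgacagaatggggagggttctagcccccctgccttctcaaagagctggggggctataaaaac
Nppb: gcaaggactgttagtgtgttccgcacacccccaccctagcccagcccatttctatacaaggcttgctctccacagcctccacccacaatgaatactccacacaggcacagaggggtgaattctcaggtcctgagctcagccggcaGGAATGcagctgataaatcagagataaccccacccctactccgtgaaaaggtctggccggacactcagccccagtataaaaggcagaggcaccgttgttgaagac
Ankrd1: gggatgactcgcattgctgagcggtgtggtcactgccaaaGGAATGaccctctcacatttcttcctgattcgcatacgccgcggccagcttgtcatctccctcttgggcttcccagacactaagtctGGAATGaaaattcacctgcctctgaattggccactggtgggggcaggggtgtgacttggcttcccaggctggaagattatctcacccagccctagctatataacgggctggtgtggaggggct
Acta1: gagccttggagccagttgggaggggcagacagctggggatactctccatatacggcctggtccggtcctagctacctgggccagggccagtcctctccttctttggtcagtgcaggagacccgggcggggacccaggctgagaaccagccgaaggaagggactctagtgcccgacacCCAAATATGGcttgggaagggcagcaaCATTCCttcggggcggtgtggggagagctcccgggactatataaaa
The TEAD letters stood 105 bases before the start of Nppb, 210 and 123 bases before that of Ankrd1 and 46 bases before that of Acta1, and the CArG box 73 bases before that of Acta1. None of the motifs searched was in the Nppa window. Among the other genes at either extreme of the ratio, the TEAD letters were also before Timp1 (247 bases), Cstdc5 (63) and the lower 2610035D17Rik (20). No motif was found before the higher Spp1, Csta2, Cstdc4 and S100a8 or the lower Crebrf, Pik3ip1, Asb14, Dram1, Gm20619, 5430431A17Rik and Atcayos. Searched on both strands, the TEAD letters were in 12.6% of all 32851 RefSeq promoters of this length, in 12.9% of the 6850 tested genes that matched, in 15.6% of the 450 matched higher genes (95% interval 12.3 to 19.2) and in 12.9% of the 668 matched lower genes. The AP-1 letters TGANTCA were in 5.02% of the tested, 7.11% (4.91 to 9.89) of the higher and 5.39% of the lower genes. The CArG box was in 1.68%, 2.44% and 1.8%, and the ERR letters TCAAGGTCA in 0.248%, 0% and 0.150%. A match of letters is a description of the sequence and no evidence of binding.

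**Figure D2:**
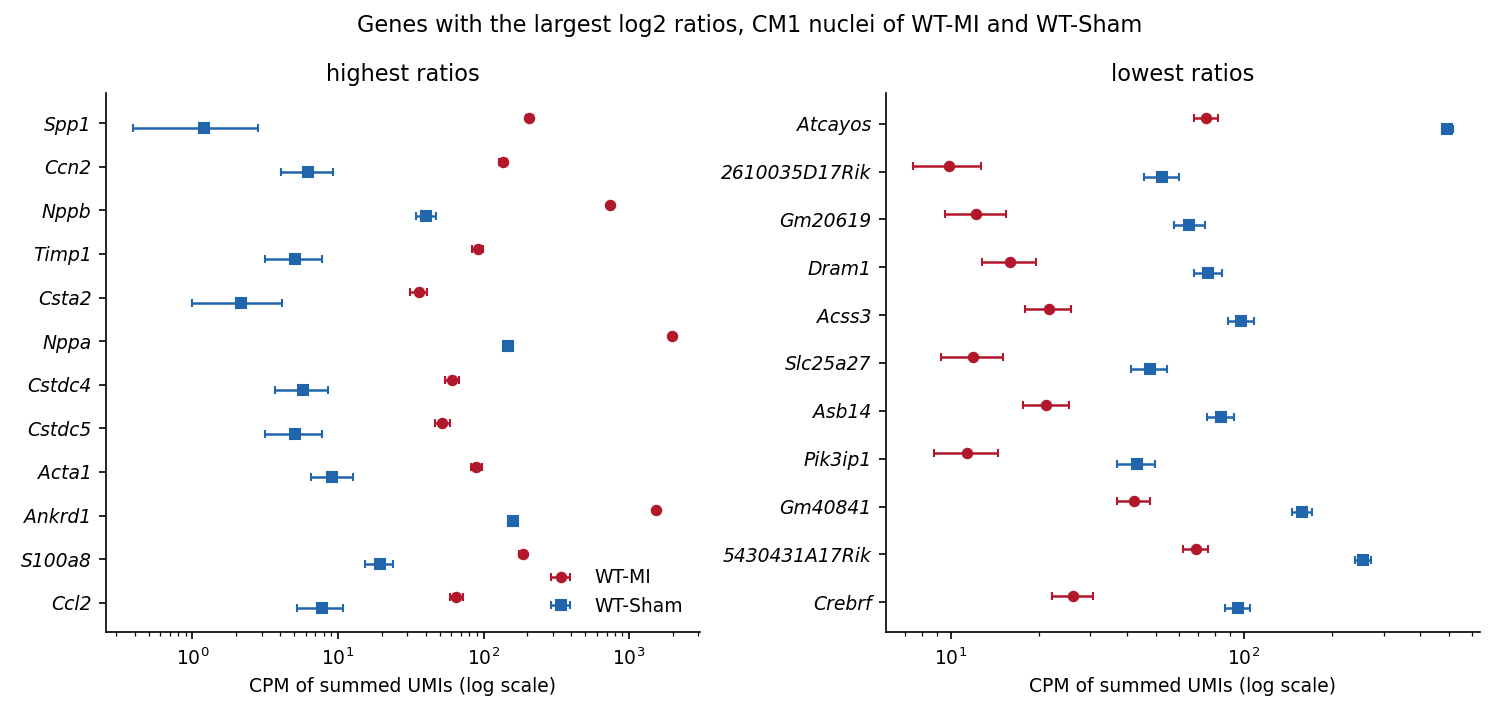
CPM of summed UMIs (log axes) in the CM1 nuclei of WT-MI (circles) and WT-Sham (squares) for genes at either extreme of the log2 ratio among those with 200 or more UMIs; bars are exact 95% Poisson intervals. The intervals of MI and Sham do not overlap for any gene shown, and for Spp1 the Sham value of 1.2 CPM rests on 5 UMIs.

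The 3 abundant stress genes were found in many CM1 nuclei of MI and in few of Sham. With every nucleus thinned to 1000 UMIs, which left out 1 Sham nucleus, an Nppa UMI was found in 82.0% of MI nuclei (95% interval 79.9 to 84.0) and 12.3% of Sham nuclei (10.4 to 14.4). Without thinning the shares were 99.5% and 35.1%. Ankrd1 was found in 61.5% and 11.2% of thinned nuclei and Nppb in 50.5% and 2.64%. The scarcer Acta1 was found in 8.62% and 1.0% and Xirp2 in 7.99% and 2.28%, so most MI nuclei had no UMI of either at that depth. Of Nppa, Nppb and Ankrd1 together a thinned nucleus held 4.28 UMIs on average in MI and 0.336 in Sham, and 4.73% of MI nuclei against 76.1% of Sham nuclei held none. Only cardiomyocyte nuclei were deposited, so no cell type that should lack these RNAs was at hand to set a background share from free RNA.

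The injury and hypertrophy list, 25 genes of strain, remodelling and the fetal program, lay on the higher side. Of its 22 genes with 100 or more UMIs, 18 were 1.5-fold or more higher (81.8%, against 6.83% of all genes) and 0 lower. All 22 ratios were above 0, with a median of 0.80 against -0.06 for all genes. Beside the 4 genes above, Tagln, a smooth muscle actin-binding protein made by fetal cardiomyocytes, had 35.5 and 5.30 CPM and a log2 ratio of 2.74 (2.11 to 3.45). Xirp2, a Xin protein that binds actin at the intercalated disc, had 86.9 and 22.6 CPM and a log2 ratio of 1.94. The secreted chaperone Clu followed at 1.32 and the filamin of the Z-disc, Flnc, at 0.95. Smaller ratios past the threshold were those of the small heat shock proteins Cryab (0.82) and Hspb1 (0.78), the peptide endothelin Edn1 (0.74), the slow myosin Myh7 (0.70), the smooth muscle actin Acta2 (0.67) and the intermediate filament desmin Des (0.61). Cryab overlaps Hspb2, Tagln overlaps Pcsk7 and Myh7 overlaps the antisense RNA Mhrt, so those counts are uncertain. The 4 members within 1.5-fold were Fhl1 (0.51), Rcan1 (0.44), Csrp3 (0.38) and the abundant LIM protein Fhl2, at 4975 and 4404 CPM (0.18).

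**Figure D3:**
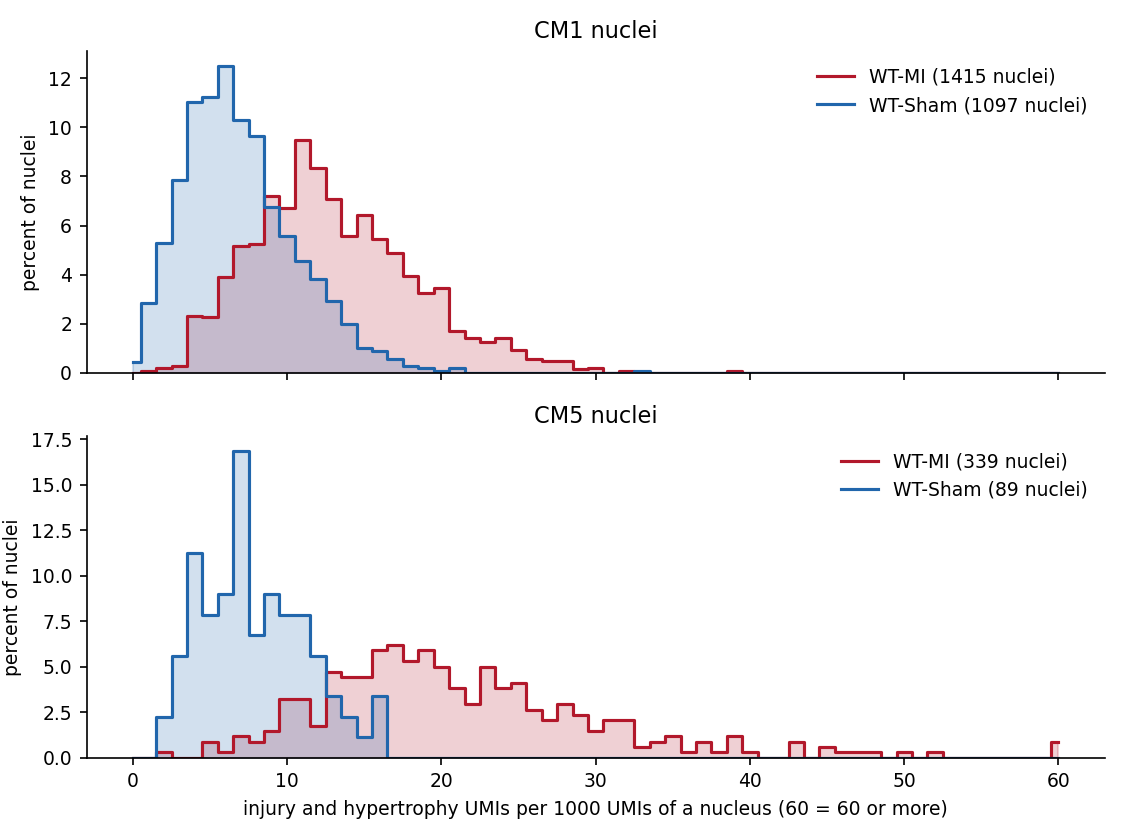
Share of nuclei (percent) by the number of injury and hypertrophy UMIs among 1000 UMIs of a nucleus, for CM1 (top) and CM5 (bottom) of WT-MI and WT-Sham. The CM1 curve of MI has its median at 12 UMIs and that of Sham at 6, as a shift of the whole curve with overlap, and in CM5 the medians are 19 and 7.

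Nucleus by nucleus, the injury list gave 13.1 UMIs per 1000 in MI, with the 10th and 90th percentile at 7 and 20, and 6.96 in Sham, at 3 and 12. At least 10 such UMIs were found in 73.4% of MI and 22.2% of Sham CM1 nuclei. Of the list's UMIs, Nppa, Nppb and Ankrd1 gave 4.28 per nucleus in MI and 0.336 in Sham, so much of the shift was theirs. CM5, a smaller population of 339 MI and 89 Sham nuclei, stood above CM1 in MI, with a mean of 21.3 UMIs, and near it in Sham, with 7.91. The labels were given by clustering these same nuclei, so which nuclei are called CM1 depends on their expression, and with the nuclei of CM1 and CM5 pooled the injury list median was 1.33 in place of 0.80.

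The stress genes differed in how their counts per nucleus were spread over the populations of the WT-MI library, whose median depth was 4042 UMIs in CM1, 4488 in CM2, 1852.5 in CM4 and 4317 in CM5. Xirp2 had 0.356 UMIs per nucleus in CM1 and 10.0 in CM5, Ccn2 0.558 and 2.87, and Ankrd1 6.26 and 18.6. Spp1 differed far less, with 0.850 in CM1, 1.60 in CM2, 0.750 in CM4 and 0.914 in CM5, although CM4 nuclei were much shallower. Timp1 (0.375, 0.333, 0.469 and 0.407), Acta1 (0.365, 0.298, 0.411 and 0.389) and the neutrophil gene S100a8 (0.761, 0.947, 0.672 and 0.773) were likewise at near-even counts per nucleus. Nppa had 8.04, 6.37, 11.4 and 15.4. Free RNA in the droplets adds a like number of UMIs to every nucleus of a library, and its part in the ratios of Spp1, Timp1, Acta1 and S100a8 was not tested.

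Genes of secreted signals and matrix proteins held the highest ratios. Of 18 with 100 or more UMIs, 11 were higher (61.1%, against 6.83% of all genes) and 1 lower (5.56%, against 9.94%), with a median of 1.36. Spp1, the secreted phosphoprotein osteopontin, had 1203 UMIs in MI and 5 in Sham, 207 against 1.2 CPM, a log2 ratio of 7.43 (6.20 to 9.05). Timp1, an inhibitor of matrix metalloproteinases that lies within Syn1, had 91.4 and 5.06 CPM and a log2 ratio of 4.18 (3.55 to 4.88). Ccl2, the chemokine that draws monocytes, had 65.0 and 7.71 CPM and a log2 ratio of 3.08 (2.55 to 3.64). The matricellular proteins Thbs1 (43.1 and 7.95 CPM, 2.44), Tnc (18.3 and 3.61 CPM, 2.34) and the galectin Lgals3 (44.3 and 9.15 CPM, 2.28) came next. The protease Adamts1 (1.85), the metal-binding Mt2 (1.64), the activin subunit Inhba (1.48), Tgfb2 (1.24) and the EGF-family ligand Hbegf (1.18) were also higher. Vegfb, a growth factor of the VEGF family, was the lower member at -0.64, and Vegfa was at 0.23. Since many of these RNAs are also made by immune cells and fibroblasts, the immune list sums above stand beside them. In the 140 MI and 613 Sham nuclei with no UMI of the myeloid and neutrophil lists, the log2 ratio was 7.23 for Spp1, 4.35 for Timp1 and 3.30 for Ccl2. For Spp1 the Sham side of that ratio rests on at most the 5 UMIs of all Sham nuclei. Leaving out nuclei with immune UMIs does not leave out free RNA, so which cells made these RNAs was not tested.

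Targets of stretch and adhesion signalling were split. Ccn2, a matricellular growth factor and a standard target of YAP and TEAD, had 789 UMIs in MI and 26 in Sham, 136 against 6.26 CPM, a log2 ratio of 4.44 (3.88 to 5.06). Its relative Ccn1 had 32.2 and 4.34 CPM, a log2 ratio of 2.89 (2.19 to 3.68). Beyond these, the YAP and TEAD list showed little, with Ajuba (0.60) and Amotl2 (0.59) at the threshold, the coactivator partner Tead1 at 0.23 and Tead2 at -0.61. Over 19 genes the median was 0.09, with 4 higher (21.1%, against 6.83% of all genes) and 1 lower (5.26%, against 9.94%). In the nuclei with an Xist UMI, Tead2 was at 0.46.

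Immediate early genes differed in both directions 1 day after surgery, more often upward. Of 12 with 100 or more UMIs, 5 were higher (41.7%, against 6.83% of all genes) and 2 lower (16.7%, against 9.94%), with a median of 0.09. The higher ones were Cebpb (27.1 and 7.23 CPM, 1.91), Ier3 (1.42), Ier5 (1.36), the orphan receptor Nr4a1 (1.26) and the antiproliferative Btg2 (1.01). The AP-1 subunits Jun (-0.36) and Jund (-0.46) were not among them, and the flow-responsive factors Klf2 (16.4 and 37.3 CPM, -1.19) and Klf4 (-1.03) were lower. Among receptors of cytokines, 3 of 14 were higher: Tnfrsf12a, the receptor of TWEAK, at 85.0 and 22.6 CPM (1.91), Osmr, the receptor of oncostatin M, at 17.1 and 5.06 CPM (1.75, 1.06 to 2.51), and the tumour necrosis factor receptor Tnfrsf1a (0.79). The kinase Tyk2 was lower at -0.77, and the list median was 0.05. The 3 higher genes were 21.4% of the 14, against 6.83% of all genes, and the 1 lower was 7.14%, against 9.94%.

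The structural genes that couple the sarcomere to the membrane and the cytoskeleton leaned to the higher side. Of 31 costamere and integrin genes, 8 were higher (25.8%, against 6.83% of all genes) and 0 lower, with a median of 0.30. Of 32 cytoskeleton genes 9 were higher (28.1%) and 0 lower, with a median of 0.42. The laminin receptor subunit Itga7 was at 22.4 and 10.1 CPM (1.15), talin Tln1 at 90.2 and 53.2 (0.76), filamin Flna at 87.2 and 52.0 (0.75) and the myofibril anchor Nrap at 232 and 142 (0.71). The crosslinker α-actinin 4, Actn4, led the cytoskeleton list at 268 and 125 CPM (1.11), followed by Pdlim7 (0.97) and the nonmuscle myosin Myh9 (111 and 58.8 CPM, 0.91). By amount, the largest gains among them were those of dystrophin Dmd, 6872 against 4497 CPM (0.61), and the scaffold Sorbs2, 3610 against 2284 CPM (0.66). The actin-bundling Palld and Lima1 were at -0.13 and -0.18.

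The sarcomere itself showed no common direction and a median of 0.04. Of 34 genes 2 were higher (5.88%, against 6.83% of all genes) and 3 lower (8.82%, against 9.94%), near the shares of all genes. The β-tropomyosin Tpm2 stood out at 64.0 and 15.7 CPM, a log2 ratio of 2.03 (1.65 to 2.43), and the M-band protein Myom1 was at 0.61. Its relative Myom2 was at -0.95, the slow skeletal troponin I of the fetal heart, Tnni1, at 587 and 985 CPM (-0.75), and the myosin kinase Mylk3 at -0.64. Of 11 genes of immature cardiomyocytes 5 were higher (45.5%) and 3 lower (27.3%), so the fetal genes did not share a direction. Acta1, Tagln, Myl9 (1.06), Myh7 and Acta2 were higher, while Dlk1 (-1.28), Tnni1 and the imprinted RNA H19 (-0.64) were lower. Dlk1 rested on 53 and 92 UMIs and ranged from -3.59 to -0.22 over the settings tried. The identity list of 10 cardiomyocyte genes had 0 genes past 1.5-fold and a median of -0.08.

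Fatty acid metabolism was lower in MI. Of 42 genes of fatty acid uptake and oxidation, all with 100 or more UMIs, 16 were 1.5-fold or more lower (38.1%, against 9.94% of all genes) and 0 higher. Of their ratios 37 were below 0, and the median was -0.47. The mitochondrial uncoupling protein Ucp3 had 22.9 and 81.9 CPM (-1.84), the isomerase Eci1 83.1 and 165 (-0.99), the trifunctional protein subunit Hadha 312 and 605 (-0.95) and the transporter Slc27a1 85.5 and 164 (-0.94). Fabp3, the abundant fatty acid-binding protein of heart, had 1503 and 2791 CPM, a log2 ratio of -0.89 (-0.93 to -0.85), and the uptake receptor Cd36 had 497 and 792 (-0.67). Cpt1b, which admits fatty acids to the mitochondrion, was at 142 and 180 CPM (-0.34). Fabp3 overlaps Zcchc17 in the annotation. The coactivator Ppargc1b had the highest ratio of the list, 0.48. Acss3, a mitochondrial acyl-CoA synthetase outside the list, was lower too, at 21.6 and 97.8 CPM (-2.18, -2.48 to -1.89).

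Genes of oxidative phosphorylation were lower by a small and common amount. Of 77 respiratory chain and ATP synthase genes of the nuclear genome, 75 had ratios below 0, with a median of -0.39. Only 7 were past 1.5-fold, all lower (9.09%, near the 9.94% of all genes). Cox4i1, the member with the most UMIs, was at 988 and 1454 CPM (-0.56), and the extremes were Ndufa13 at 104 and 188 CPM (-0.84) and Ndufa4l2 at 0.20. The 13 protein genes of the mitochondrial genome summed to 55578 and 63237 CPM, with a median of -0.18 and 0 past the threshold. The citrate cycle list had 0 of 24 genes past the threshold and a median of -0.17, from Idh2 at -0.55 to Idh3a at 0.31. These lists lie on the same side as the share of mitochondrial RNA, which was lower in MI (a median of 5.15% against 6.13%), and the part of mitochondrial or cytoplasmic RNA carried with the nuclei was not tested. Over the settings tried, the respiratory median ranged from -0.435 to -0.281.

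Energy transfer and glycolysis were less uniform. Mitochondrial creatine kinase Ckmt2 was higher, at 360 and 192 CPM (0.91), while muscle creatine kinase Ckm was lower, at 381 and 692 CPM (-0.86), as was the adenylate kinase Ak1 (-0.69). Of 20 glycolysis genes 4 were higher and 1 lower, with a median of 0.29. The platelet-type phosphofructokinase Pfkp was at 133 and 66.5 CPM (1.0, 0.80 to 1.2), Pgam1 at 70.5 and 38.1 (0.89), the glucose transporter Slc2a1 at 18.3 and 10.6 (0.79) and Pgk1 at 162 and 105 (0.62). The muscle enolase Eno3 was lower (-0.67). The hypoxia list of 15 genes had a median of 0.08, with 6.67% higher and 13.3% lower, against 6.83% and 9.94% of all genes. The collagen hydroxylase P4ha1 was higher (0.99), and Mxi1 (-0.84) and the hypoxia-inducible factor Epas1 (-1.09) were lower.

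**Figure D4:**
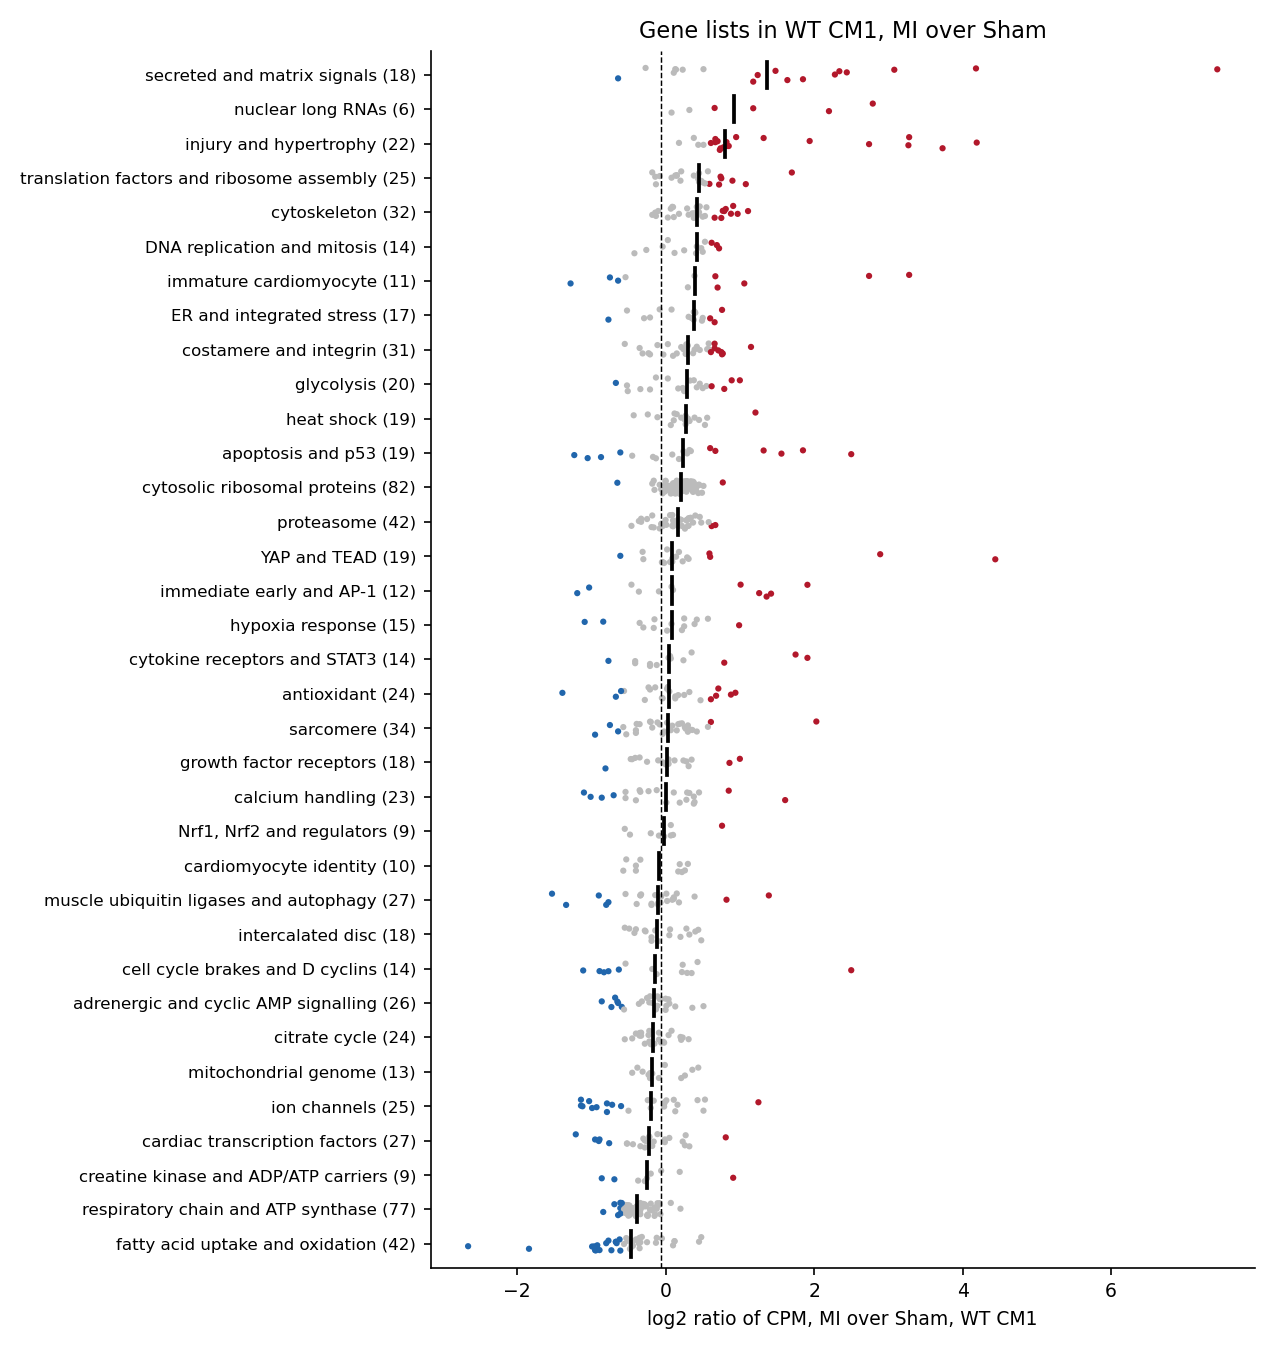
Each point is a gene of the named list with 100 or more UMIs (their number in brackets), placed at its log2 ratio of CPM, MI over Sham, in WT CM1; red and blue mark 1.5-fold or more higher and lower, black bars the list medians and the dashed line the median of all genes (-0.06). Secreted signals (1.36) and the injury list (0.80) lie to the right, and fatty acid (-0.47) and respiratory genes (-0.39) to the left.

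Ion channel genes were lower more often than higher. Of 25 ion channel genes, 10 were lower (40.0%, against 9.94% of all genes) and 1 higher (4.00%, against 6.83%), with a median of -0.20. The lower ones included Kcnip2 (46.4 and 102 CPM, -1.14) and Kcnd2 (250 and 510 CPM, -1.03), the subunits of the transient outward potassium current. Kcnj3, a G protein-gated potassium channel, was at 62.4 and 137 CPM (-1.14), the calcium channel Cacna1d at 50.5 and 110 (-1.12) and the KATP subunit Abcc9 at -0.99. Cacna1c, the L-type calcium channel that starts each contraction, had the largest loss in CPM of any gene, 6131 against 9979, a log2 ratio of -0.70 (-0.72 to -0.68). Slc8a1, the sodium-calcium exchanger that moves calcium out of the cell, had the largest gain after Malat1, 20778 against 11524 CPM, a log2 ratio of 0.85 (0.84 to 0.87).

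Calcium handling genes showed no common direction, with 12 ratios above 0, 11 below and a median of 0.00. Of the 23, 2 were 1.5-fold or more higher (8.70%, against 6.83% of all genes) and 4 lower (17.4%, against 9.94%). Pln, the inhibitor of the sarcoplasmic calcium pump, had 860 and 1845 CPM, a log2 ratio of -1.10 (-1.15 to -1.05), and was found in 56.7% of MI and 83.7% of Sham nuclei after thinning. It lies within a span shared with Cep85l, so its count is uncertain. The pump Atp2a2 itself was at 1796 and 2615 CPM (-0.54), so both partners were lower. The calcium sensor Stim1 was at 20.5 and 41.4 CPM (-1.01) and the luminal calcium-binding Hrc at 35.0 and 63.4 (-0.86). Casq1, the calsequestrin of skeletal muscle, was higher, at 23.4 and 7.71 CPM (1.61, 1.04 to 2.21). In adrenergic and cyclic AMP signalling 6 of 26 genes were lower (23.1%) and 0 higher (median -0.16). Among the lower ones were the receptors Adrb1 (51.7 and 94.2 CPM, -0.86) and Adra1b (101 and 162 CPM, -0.68) and the phosphodiesterase Pde3a (429 and 667 CPM, -0.64). The anchoring protein Akap6 was at 0.51. All 18 intercalated disc genes were within 1.5-fold.

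Cardiac transcription factors were lower as a list, with a median of -0.23. Of 27 genes 5 were lower (18.5%, against 9.94% of all genes) and 1 higher (3.70%, against 6.83%). Hey2, a Notch-responsive repressor of the compact myocardium, was at 48.6 and 112 CPM (-1.21, -1.43 to -0.99), the T-box factor Tbx5 at 22.2 and 43.1 (-0.95), the ventricular homeobox factor Irx4 at 25 and 46.5 (-0.89) and the thyroid hormone receptor Thra at 94.3 and 159 (-0.76). Gata4 (911 and 730 CPM, 0.32), Mef2c (0.26) and Nkx2-5 (-0.22) stayed within 1.5-fold. Irx5 was the higher member (0.81), but its ratio was -0.26 in the nuclei without myeloid or neutrophil UMIs.

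Genes of growth arrest, survival and protein breakdown differed in both directions. In the apoptosis and p53 list 6 of 19 were higher (31.6%, against 6.83% of all genes) and 4 lower (21.1%, against 9.94%), with a median of 0.24. Of 14 cell cycle brakes and D cyclins 1 was higher (7.14%) and 5 lower (35.7%), with a median of -0.15. Cdkn1a, the p21 inhibitor of cyclin-dependent kinases, had 111 UMIs in MI and 14 in Sham, 19.1 and 3.37 CPM, a log2 ratio of 2.50 (1.70 to 3.42). The survival gene Bcl2 was at 107 and 29.6 CPM (1.85) and its opponent Bcl2l11 at 61.7 and 128 (-1.05). The p53 target Trp53inp1 was at 8.10 and 19 CPM (-1.23). Other cyclin-dependent kinase inhibitors were lower, with Cdkn1c at 9.83 and 21.2 CPM (-1.11) and Cdkn1b at 14.0 and 21.7 (-0.63), as was the cyclin Ccnd1 at 13.6 and 25.3 (-0.89). DNA replication and mitosis genes were scarce, with 14 of 38 reaching 100 UMIs, and the proliferation marker Mki67 was at 13.1 and 12 CPM (0.12, -0.41 to 0.67), so no difference was detectable at this depth. Mcm6 (0.72), Pola1 (0.69) and Tyms (0.62) were past 1.5-fold (21.4% of the 14), Pola1 being at -0.36 in nuclei with an Xist UMI.

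Of 27 muscle ubiquitin ligase and autophagy genes 2 were higher (7.41%, against 6.83% of all genes) and 5 lower (18.5%, against 9.94%), with a median of -0.10. The muscle ubiquitin ligase Fbxo32 (atrogin-1) was lower, at 21.9 and 63.1 CPM (-1.53, -1.84 to -1.22), while the sarcomere-bound ligase Trim54 was higher (1.39). Autophagy genes were among the lower ones: the mitophagy kinase Pink1 at 12.9 and 32.8 CPM (-1.34), the LC3 genes Map1lc3a at 102 and 190 (-0.90) and Map1lc3b at 45.2 and 76.8 (-0.77), and, outside the list, the lysosomal regulator Dram1 at 15.9 and 75.6 (-2.25, -2.60 to -1.91). Pik3ip1, an inhibitor of PI3 kinase, was at 11.4 and 43.1 CPM (-1.92), the endoplasmic reticulum stress regulator Crebrf at 26.2 and 95.4 (-1.86) and the ankyrin-repeat ubiquitin ligase subunit Asb14 at 21.2 and 83.6 (-1.98). The brain-type mitochondrial carrier Slc25a27 was at 11.9 and 47.7 (-2.0). Of 18 growth factor receptor genes 2 were higher (11.1%) and 1 lower (5.56%), with a median of 0.02. The hepatocyte growth factor receptor Met (1.0) and the insulin receptor substrate Irs1 (0.86) were higher, Grb14 lower (-0.81), and the neuregulin receptor Erbb4 was at 1462 and 1936 CPM (-0.41).

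Genes of protein synthesis were slightly higher. Of 82 cytosolic ribosomal protein genes 70 had ratios above 0, with a median of 0.21. Past 1.5-fold were Rpl38 (416 and 244 CPM, 0.77) and Rpl15 (-0.65), 1.22% each way, against 6.83% of all genes higher and 9.94% lower. Translation factors and ribosome assembly genes had 7 of 25 higher (28.0%, against 6.83% of all genes) and 0 lower, with a median of 0.45. The assembly factor Rrp12 led them (14.8 and 4.58 CPM, 1.70), and the nucleolar Nop56 was at 32.4 and 17.3 (0.90). The heat shock list had a median of 0.27 and 1 gene past the threshold (5.26%), Hspb8 (15.0 and 6.50 CPM, 1.21). The list of endoplasmic reticulum stress had a median of 0.38, with Slc3a2 (0.76), Xbp1 (0.66) and Manf (0.60) higher (17.6%) and Herpud1 (-0.77) lower (5.88%).

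The proteasome and antioxidant lists had medians near 0 in these control nuclei, but single antioxidant genes differed. In the study's cultured rat cardiomyocytes, overexpressed Nrf1 and its relative Nrf2 both raised antioxidant pathways, and only Nrf1 raised those of the proteasome. The 42 proteasome genes had a median of 0.16, with Psmd14 (0.67) and Psmc4 (0.62) higher (4.76%, against 6.83% of all genes) and 0 lower. Of 24 antioxidant genes 5 were higher (20.8%, against 6.83% of all genes) and 3 lower (12.5%, against 9.94%), with a median of 0.04. The heme oxygenase Hmox1 was higher (16.2 and 8.43 CPM, 0.94), but it ranged from 0.28 after thinning to 1.91 in nuclei with an Xist UMI. The glutathione synthesis enzyme subunits Gclc (24.3 and 13.2 CPM, 0.88) and Gclm (35.2 and 23.1 CPM, 0.61) were higher too. So were the reductase Txnrd1 (0.68) and the peroxidase Gpx1 (0.71). Txnip, the inhibitor of thioredoxin, was lower at 119 and 312 CPM (-1.39, -1.52 to -1.26). Nfe2l1, which encodes Nrf1, was at 44.1 and 61.4 CPM (-0.48, -0.73 to -0.22), Nfe2l2 at 0.07, and their small MAF partner Mafg was higher (0.76).

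Long nuclear RNAs were among the larger gains, with 4 of 6 higher (66.7%, against 6.83% of all genes), 0 lower and a median of 0.92. Malat1 took 123381 CPM in MI and 98908 in Sham (0.32), the largest difference in CPM of any gene. The paraspeckle RNA Neat1 was at 353 and 156 CPM (1.18). Meg3 and Rian, imprinted RNAs of a shared cluster on chromosome 12, were at 313 and 45.3 CPM (2.79) and at 63.1 and 13.7 CPM (2.20). Meg3 was uneven among nuclei, with 12.3% of MI and 3.01% of Sham nuclei having a UMI after thinning, and the 10 MI nuclei with the most Meg3 held 21.4% of its MI UMIs. Gm42418, a locus that overlaps ribosomal RNA, was at 1682 and 710 CPM (1.24), and the part of captured ribosomal RNA in it was not tested.

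The lowest ratio among genes with 200 or more UMIs was that of the antisense gene Atcayos on chromosome 10, at 74.5 and 495 CPM, a log2 ratio of -2.73 (-2.89 to -2.58). After thinning, 7.07% of MI and 37.6% of Sham nuclei had an Atcayos UMI. On the opposite strand, within its span, lies Nmrk2, a nicotinamide riboside kinase of striated muscle, which had the contrary ratio at 153 and 26.3 CPM, a log2 ratio of 2.55 (2.26 to 2.85). Reads of the pair can be told apart only if the counting used strand. Other long noncoding RNAs with low ratios were 2610035D17Rik (-2.42), Gm20619 (-2.41), Gm40841 (-1.91) and 5430431A17Rik (-1.90).

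Genes of other cell types were read from the same CM1 sums. S100a8, a neutrophil calcium-binding protein, was at 186 and 19.3 CPM (3.27, 2.94 to 3.61) and S100a9 at 194 and 27.7 (2.81), while the neutrophil receptor Csf3r had 25 and 2 UMIs, a log2 ratio of 3.16 with an interval from 1.16 to 6.28. The cystatin genes Csta2 (35.9 and 2.17 CPM, 4.05), Cstdc4 (3.40) and Cstdc5 (3.37) belong to a family of near-identical copies known for high levels in neutrophils, so their counts are uncertain. Of 4 myeloid genes with 100 or more UMIs 3 were higher, Lyz2 (1.64), Tyrobp (1.18) and C1qb (0.79), and C1qa was within 1.5-fold (0.32). Under the minimum of 100, Cd68 had 74 and 16 UMIs (1.73, 0.93 to 2.61). Csf1r, with 33 UMIs in both sums, had a ratio on the other side of 0 (-0.48). Fibroblast genes summed to 916 and 1079 CPM, endothelial genes to 491 and 463, smooth muscle and pericyte genes to 263 and 430, epicardial genes to 36.4 and 18.3, and endocardial genes to 96.4 and 113. Lymphocyte, atrial and Schwann cell lists were low in both, at 9.31 and 5.54, 40.7 and 37.6, and 9.66 and 15.9 CPM, and Sox10 and Bmp10 were at 0 in both. The hemoglobin gene Hbb-bs was at 2014 and 1418 CPM (0.51), but Hba-a2 and Hbb-bt were at -0.59 and -0.60 in nuclei with an Xist UMI.

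Xist itself was at 1010 and 161 CPM, a log2 ratio of 2.65, and the 4 Y-linked genes lay between -1.37 and -0.85. There were 819 MI and 109 Sham nuclei with an Xist UMI, and 424 and 685 with a Y UMI and no Xist UMI. In the first set 405 of the 593 higher and 562 of the 863 lower genes were past 1.5-fold again. In the second set 504 and 713 were. No UMI minimum within the set was applied to these counts. Among all genes that reached the minimum there, 10.8% were higher and 10.2% lower in the first set, and 6.28% and 11.3% in the second. Both sets are part of the nuclei that gave the calls, so the counts are no independent check of them. Nppa was at 3.98 in the first set, the highest value of any setting. In that set Nppb (3.78), Ankrd1 (2.49), Acta1 (2.49) and Tagln (1.90) had their lowest values of any setting. Nppb (4.44) and Ankrd1 (3.60) had their highest in the second set. These splits, like the one by immune UMIs, were chosen after seeing the data.

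The knockout pair, KO-MI over KO-Sham, shares no library with the control pair and gives the same comparison in CM1 nuclei of the libraries labelled as a cardiomyocyte knockout. In that pair 9.11% of the same 8682 genes were 1.5-fold or more higher and 8.75% lower. Of the 593 genes higher in the control pair, 569 had a ratio above 0 in the knockout pair and 412 (69.5%) were 1.5-fold or more higher there. Of the 863 lower genes, 797 were below 0 and 362 (41.9%) were 1.5-fold or more lower, and 1 was 1.5-fold or more higher. Across genes, which are not independent replicates, the ratios of the pairs had a Pearson r of 0.78. Nppa was at 3.21, Nppb at 2.98, Ankrd1 at 3.05, Acta1 at 2.42, Ccn2 at 3.67, and Spp1 at 4.75 in the knockout pair. The injury list median was 0.93 there and the fatty acid median -0.56. Energy and protein synthesis lists differed more, with medians in the knockout pair of -0.99 for the respiratory chain, -0.65 for the mitochondrial genome, -0.16 for ribosomal proteins and -0.19 for the proteasome. Ion channels were at -0.025 there, cardiac transcription factors at -0.019, adrenergic and cyclic AMP signalling at -0.037 and heat shock at 0.010. In the control pair these 4 medians were -0.195, -0.225, -0.158 and 0.271. The median of all genes was 0.053 in the knockout and -0.057 in the control pair. Nfe2l1, the targeted gene, was at 57.7 CPM in KO-MI and 53.3 in KO-Sham, beside 44.1 in WT-MI and 61.4 in WT-Sham, so its summed count did not set the knockout libraries apart, and which exons are deleted cannot be seen in a count per gene. The KO-Sham nuclei were shallower (a median of 2632 UMIs against 4043.5 in KO-MI) and richer in mitochondrial RNA (8.78% against 5.05%), and the part of those differences in the knockout ratios was not tested. Sex and immune RNA were unequal in the same direction as in the control pair. An Xist UMI was found in 78.7% of KO-MI and 50.9% of KO-Sham CM1 nuclei, and a Y UMI in 18.9% and 33.1%. The neutrophil list summed to 175 and 47.6 CPM and the myeloid list to 152 and 70.3. Their part in the likeness of the pairs was not tested. The difference between the pairs has no replicates either way and was not tested.

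**Figure D5:**
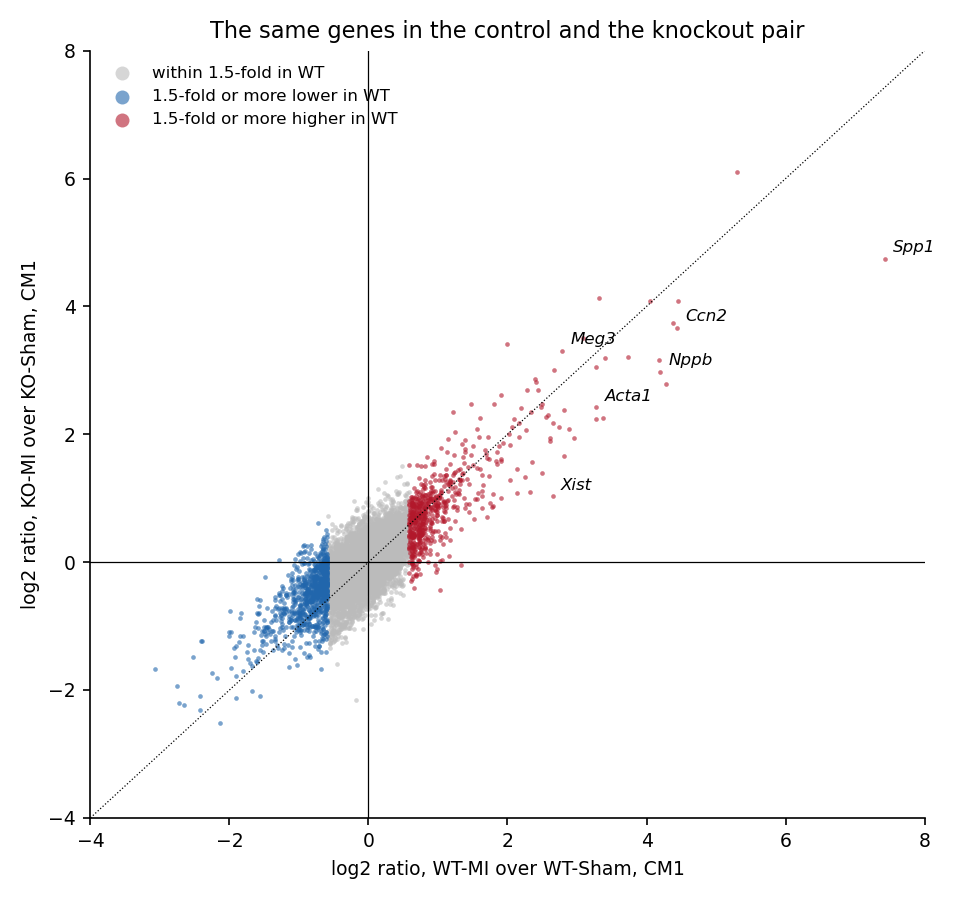
Log2 ratio of CPM, MI over Sham, in CM1 nuclei of the control pair (horizontal) and the knockout pair (vertical) for the 8682 genes; colours mark the calls in the control pair and the dotted line equal ratios. Of the 593 genes called higher, 569 lie above 0 on the vertical axis, and of the 863 called lower, 797 lie below it.

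Within the control libraries, the other cardiomyocyte populations also showed many of the CM1 differences. Of the higher CM1 genes with 20 or more UMIs there, 380 of 549 (69.2%) were 1.5-fold or more higher in CM5 as well, against 20.5% of all genes measured in CM5. In CM4 the figures were 297 of 381 (78.0%) against 28.6%, and in the small CM2 population 96 of 200 (48.0%) against 16.8%. Of the lower CM1 genes, 415 of 638 (65.0%) were lower in CM5, 209 of 391 (53.5%) in CM4 and 95 of 208 (45.7%) in CM2, against 25.2%, 16.0% and 16.2% of all genes. These populations come from the same pools of hearts as CM1 and are no replicates of it. Xirp2 was spread widely, with a log2 ratio of 1.94 in CM1, 4.64 in CM5, 3.98 in CM4 and 2.51 in CM2. Slc8a1 was at 0.85 in CM1 and -0.06 in CM5, so its gain was not found in every population. Per 1000 UMIs, fatty acid genes gave 9.15 UMIs in MI and 12.6 in Sham in CM1, and 5.41 and 13.2 in CM5. No test of these differences between populations was possible.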

How the data were processed

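Nuclei of 4 libraries were sequenced on a droplet platform (kit v2 in the labels, v3 in the study's methods), counted with Cell Ranger (version not given in the sources used here) and clustered with Seurat 3. The authors deposited raw UMI counts for nuclei with 537 to 2499 genes, and a table with the population label and the percent of mitochondrial UMIs of each nucleus, also computed by the authors. Only nuclei labelled as cardiomyocytes were in the files. The authors removed doublets found with Scrublet, and no doublet caller was run here. The other 11 deposited columns were not used, and deposited labels, not a new clustering, defined CM1.

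Here counts were summed over the CM1 nuclei of a library and scaled to CPM by the sum's total. Log2 ratios have exact conditional binomial intervals, CPM exact Poisson and shares exact Clopper-Pearson intervals, all at 95% and for counting error only, since UMIs of 1 pool do not measure the spread between hearts. The floor was 3 UMIs. With 1 pool a side no test was made. A gene counted as called at 1.5-fold if its UMIs over both sums came to 100 or more, and the half-width of its interval had a median of 0.31 log2 units. For values per nucleus each nucleus was thinned to 1000 UMIs.

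Named genes were the 12 highest and 12 lowest ratios among genes with 200 or more UMIs whose interval excludes no change, the 10 largest differences in CPM each way, the most abundant and the extreme members of each of 49 gene lists, the injury and immediate early members, and marker genes. Some genes that the rule names are not reported here. Other list members were named after their values were seen. The population, the lists and the rule were chosen with earlier results of these data known.

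Gene positions come from GENCODE M21, which matched 22122 of 22574 symbols (98.0%), and promoters from RefSeq (GRCm38.p6). Whether the authors' counting used strand is not given in the sources used here. Alternatives were other scalings (edgeR 4.0.16, DESeq2 1.42.0 under R 4.3.3), totals, minimums, folds and sets of nuclei. Steps ran in Python 3.11.15 with numpy 2.4.6, scipy 1.17.1, pandas 2.3.3 and matplotlib 3.10.9 and were tested on simulated data.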

Additional observations from a re-analysis of the deposited data

Results flagged for a closer look

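Among all 8682 genes with 100 or more UMIs, 168 had intervals on opposite sides of 0 in the 2 pairs, and 6 of those were past 1.5-fold in the control pair. For 9 of the genes named by rule the interval of the MI over Sham log2 ratio lay on opposite sides of 0 in the control and the knockout pair of CM1 nuclei, and the difference between the pairs was not tested. These 9 were all within 1.5-fold in the control pair. Higher in the control and lower in the knockout pair were the LIM protein Csrp3 (0.38 against -0.27), the citrate cycle enzyme Idh3a (0.31 against -0.29), cardiac actin Actc1 (0.30 against -0.37), the chaperone Hsp90ab1 (0.21 against -0.16) and the ribosomal protein Rplp1 (0.21 against -0.33). Lower in the control and higher in the knockout pair were the phosphodiesterase Pde4b (-0.08 against 0.14), the sarcomeric ligase Trim55 (-0.10 against 0.28), the actin-binding Palld (-0.13 against 0.15) and the cofactor of serum response factor Myocd (-0.18 against 0.05). The KO-Sham nuclei, with a median of 2632 UMIs, were the shallowest of the 4 CM1 sets, and their part in these signs was not tested.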

How the results depend on the processing

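The count of genes 1.5-fold or more higher (593) was 283 with nuclei thinned to 1000 UMIs, 383 in nuclei with a Y UMI and no Xist UMI, 268 in nuclei without myeloid or neutrophil UMIs, 168 with a minimum of 500 UMIs, 200 at 2-fold and 1319 with a minimum of 20 UMIs. The count lower (863) was 366 thinned, 556 in nuclei under 5% mitochondrial, 551 in nuclei with an Xist UMI, 218 with a minimum of 500, 212 at 2-fold and 1864 with a minimum of 20. Sets of fewer nuclei or UMIs left fewer genes to count, such as 4086 after thinning. The scalings gave 770 higher and 609 lower (TMM) and 761 and 617 (DESeq2). The injury list median was 1.33 with CM5 nuclei added and otherwise within 0.695 to 0.893. Of 113 named genes past 1.5-fold, 106 kept their direction in all alternatives and 72 stayed past 1.5-fold in all. The log2 ratio changed sign for Ddx3y (0.01, Y nuclei), Hba-a2 (-0.59), Hbb-bt (-0.60), Pola1 (-0.36) and Tead2 (0.46) in nuclei with an Xist UMI, for Irx5 (-0.26) without immune UMIs and for Lmcd1 (-0.01) after thinning, and the cause was not tested. A set without red blood cell, myeloid and neutrophil UMIs was not run, since it left 1 WT-MI and 2 WT-Sham nuclei. The sets by sex markers and by myeloid and neutrophil UMIs were chosen after seeing the data. No paired analysis was possible because each group is 1 pool.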

Other observations

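The genes in this section were chosen after their values were seen, and the values are given as descriptions of the CM1 sums of WT-MI and WT-Sham. Genes picked in this way among those known to respond to fasting or to low insulin signalling included several that were lower in MI. Of 19 with 100 or more UMIs, 9 were 1.5-fold or more lower and 0 higher, with a median log2 ratio of -0.49. Among all genes 9.94% were lower and 6.83% higher, but a group picked by its values gives no result about the pathway. The lower ones included Fbxo32, Txnip, Pik3ip1, Crebrf and Trp53inp1, described above. Others were the ubiquitin ligase adaptor Klhl24 (84.1 and 203 CPM, -1.27), the sestrin Sesn3 (12.2 and 20 CPM, -0.71) and the pyruvate dehydrogenase kinase Pdk4 (60 and 113 CPM, -0.92, -1.12 to -0.71). Of these lower genes, Pdk4 was at 0.17 in the knockout pair, while the others named were between -1.49 and -0.77 there. Within 1.5-fold in the control pair were, among others, Bnip3 (0.39), Irs2 (0.28), Insr (-0.00), Foxo3 (-0.11) and Eif4ebp1 (-0.14).

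Genes of the circadian clock differed in both directions. Per2 was at 38.1 and 17.3 CPM (1.14, 0.75 to 1.54) and Per1 at 20.9 and 13 CPM (0.68), and the clock-output repressors Bhlhe40 (0.70) and Bhlhe41 (0.72) were higher too. The core activator Arntl rested on 17 and 41 UMIs, a log2 ratio of -1.75 (-2.66 to -0.90) and Rora was at -0.63. In the knockout pair Per2 was at 1.93 and Arntl at -2.62. Of 15 clock genes with 100 or more UMIs 4 were higher and 2 lower, with a median of -0.01. Among all genes 6.83% were higher and 9.94% lower. The hour of tissue collection was not given in the sources used here. Of 9 glucocorticoid-responsive genes with 100 or more UMIs 3 were higher and 1 lower, with a median of 0.13. Fkbp5 was at 18.4 and 7.95 CPM (1.21, 0.64 to 1.82), and Mt2 (1.64) and Per1 were the other higher ones. Pdk4 was the lower one, and Tsc22d3 was at -0.49.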
